A study of Homo sapiens with 6 samples.

Results

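The genes described here are 10 members of 2 protein families that together set how fast extracellular matrix is broken down. They are the matrix metalloproteinases MMP1, MMP2, MMP3, MMP9, MMP10, MMP13 and MMP14, and the tissue inhibitors of metalloproteinases TIMP1, TIMP2 and TIMP3. They were taken by symbol from a list, and each matched 1 of the 61541 Ensembl genes in the deposited table. Their RNA was measured by sequencing in 6 libraries labelled as A498, an established human line from a clear cell renal carcinoma, all kept in RPMI-1640 medium supplemented with serum. In 3 libraries the cells carried a control short hairpin RNA (shcontrol), and in the other 3 a short hairpin RNA against RNF26 (shRNF26), which encodes a ubiquitin ligase of the endoplasmic reticulum membrane. The treatment label names transfection and infection for both groups alike. The hairpin used, any cloning of the cells and whether replicates were separate cultures were not given in the sources used here, so p-values measure the spread between these libraries, which may be technical.

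MMPs are zinc endopeptidases that are made as inactive precursors, and a cysteine of the propeptide blocks the zinc until the propeptide is cut. Collagenases (MMP1, MMP13) cut fibrillar collagen, gelatinases (MMP2, MMP9) cut denatured and basement membrane collagen, stromelysins (MMP3, MMP10) cut a broad set of matrix proteins and other pro-MMPs, and the membrane-anchored MMP14 cuts collagen at the cell surface and activates pro-MMP2. TIMPs bind the active site through their N-terminal cysteine, and TIMP2 also serves as the bridge that holds pro-MMP2 on MMP14. In renal carcinoma these enzymes are known mainly for their part in invasion and in remodelling of the vessel basement membrane.

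The feature that makes the 7 enzymes a family is the zinc-binding stretch of the catalytic domain. Its coding bases, read 5′ to 3′ from the principal GENCODE 29 transcript of each gene (GRCh38), are shown so that the genes behind the counts can be compared. Capitals mark the codons of the 3 zinc-binding histidines and of the catalytic glutamate beside the first of them.
MMP1: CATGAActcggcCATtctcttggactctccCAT
MMP13: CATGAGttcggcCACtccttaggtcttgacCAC
MMP10: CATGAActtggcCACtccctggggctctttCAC
MMP3: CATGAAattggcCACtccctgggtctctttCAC
MMP2: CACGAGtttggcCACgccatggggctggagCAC
MMP9: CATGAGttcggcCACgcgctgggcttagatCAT
MMP14: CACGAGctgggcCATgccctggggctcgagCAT
Of the 33 bases, MMP10 had 25 in common with MMP1, MMP3 had 24, MMP14 had 23, MMP13 had 22, MMP9 had 21 and MMP2 had 18. The inhibitors are recognised by the Cys-X-Cys start of the mature protein, which reaches into that zinc site. Its coding stretch is given in the same way, with the codons of both cysteines in capitals.
TIMP1: TGCaccTGTgtcccaccccaccca
TIMP2: TGCagcTGCtccccggtgcacccg
TIMP3: TGCacaTGCtcgcccagccacccc
TIMP2 and TIMP3 each had 15 of the 24 bases in common with TIMP1. Over longer windows the members could be told apart. Of all 50-base windows of the principal transcript, none in MMP13, MMP14, TIMP1 or TIMP3 occurred in a transcript of another gene. For MMP10 and MMP3 59 windows were common to both, 3.45% of those of MMP10. For MMP1 2.92% lay in the opposite-strand pseudogene WTAPP1, for MMP2 3.44% in a same-strand non-coding gene, for MMP9 11.2% in SLC12A5-AS1 and for TIMP2 13% in CEP295NL and a non-coding gene. Those neighbours had few counts: WTAPP1 had 2 to 9 per library, SLC12A5-AS1 0 in every library, and CEP295NL 26 to 55. As the strand setting of the counting was not given in the sources used here, reads from such overlaps cannot be assigned with certainty.

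The 6 libraries held 16682871 to 18021718 gene counts each, and the detection limit, 3 counts where none is seen, stood at 0.166 to 0.180 CPM (counts scaled to library size), counting error only. RNF26 itself fell to 3.48% of its control level, with 31901 to 35331 counts in the shcontrol libraries and 1175 to 1274 in the shRNF26 libraries. That is a mean of 1972 CPM in shcontrol and 68.7 CPM in shRNF26. Not adjusted for length, the shcontrol level of RNF26 was above that of MMP14 (1162 CPM), and why was not tested. Of 10 renal and clear cell carcinoma markers 9 averaged below 1 CPM, PAX8 being the exception at 2.5 CPM. The summed level of these renal markers was only 4.51 to 5.92 CPM in shcontrol and 4.25 to 5.01 CPM in shRNF26. All 6 epithelial markers were well expressed, with a summed level of 5351 to 5676 CPM in shcontrol and 4773 to 4911 CPM in shRNF26. MMPs and TIMPs are also made by fibroblasts. Of 8 fibroblast markers 7 averaged below 1 CPM, COL3A1 and POSTN had no count in any library, and the summed level of the list was 55.5 to 66.6 CPM in shcontrol against 82.1 to 89.2 CPM in shRNF26, nearly all of it COL1A1. Of 8 leukocyte and 6 endothelial markers, 7 and 5 averaged below 1 CPM. In bulk RNA, fewer cells with a transcript and less of it per cell cannot be told apart.

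Most of the expressed members were lower after RNF26 knockdown, and 2 enzymes were higher. MMP1 and MMP10 showed the largest falls, TIMP1, TIMP3 and MMP14 fell by smaller amounts, TIMP2 fell slightly, and MMP13 and MMP2 rose. Of the 10 members, 8 passed the minimum of a mean of 1 CPM, with MMP13 the lowest of them at 10.2 CPM. All 8 were called at an adjusted p below 0.05 (edgeR quasi-likelihood test, Benjamini-Hochberg over all 14766 tested genes), 2 higher and 6 lower. The same test called 41.4% of all tested genes, 18.9% higher and 22.6% lower. The shcontrol and shRNF26 values did not overlap for any of these 8 genes, as for 50.1% of all tested genes. Their median log2 fold change was -0.49, where the median over all tested genes was 0.0079 and the 5th and 95th percentiles were -0.69 and 0.52. MMP3 and MMP9 did not pass the minimum.

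**Figure D1:**
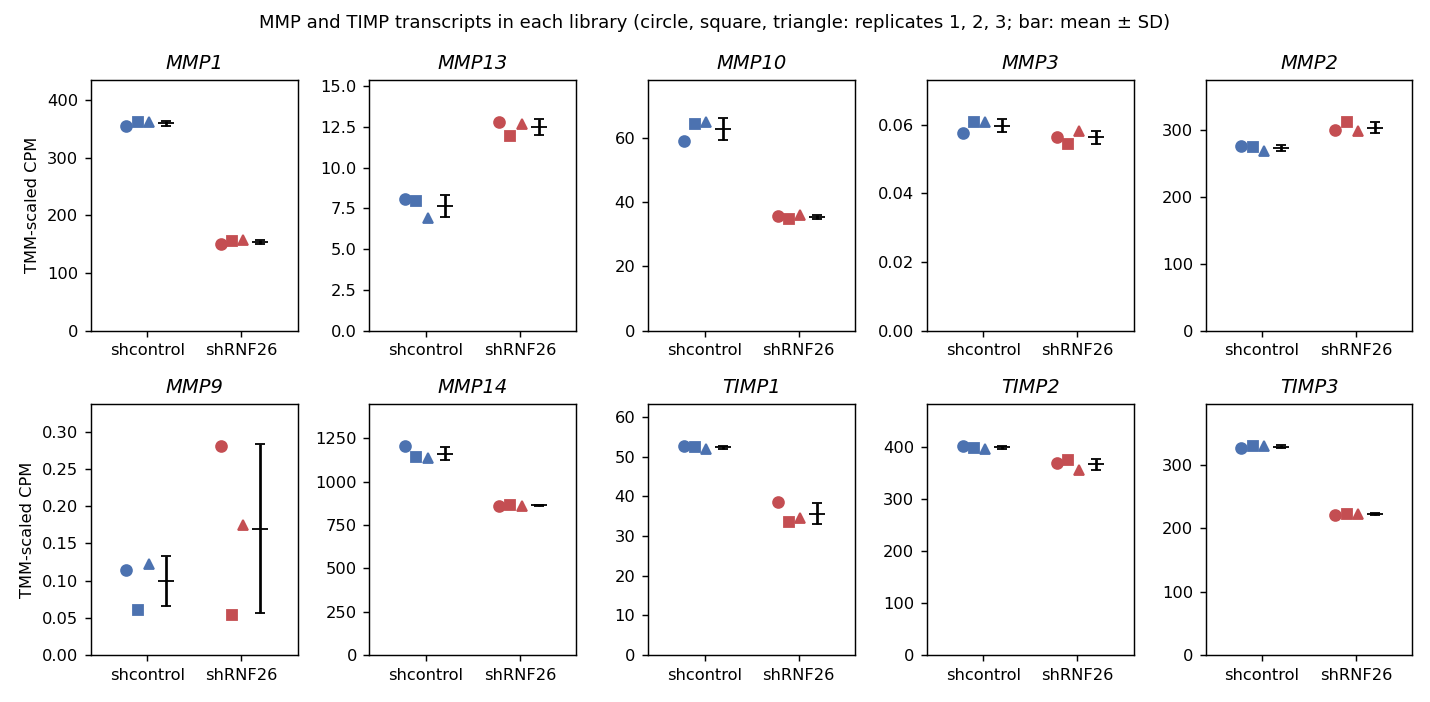
Level of each member in each library as CPM scaled by the trimmed mean of M values (TMM), on axes that start at 0; points are libraries, bars the mean ± SD of 3. MMP1 lies at 354 to 363 in shcontrol and 151 to 157 in shRNF26, MMP13 goes the other way, and the values of MMP3 all stem from 1 count per library.

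The collagenases moved in opposite directions. MMP1 (ENSG00000196611, chromosome 11), the interstitial collagenase, had 6171, 5958 and 5938 counts in the shcontrol libraries and 2677, 2850 and 2699 in the shRNF26 libraries. Scaled to library size these were 354, 363 and 362 CPM against 151, 155 and 157 CPM. Every knockdown library lay below every control library, with a spread within groups that was small beside the gap. MMP1 fell from 360 ± 4.5 to 154 ± 3.21 CPM (SD, n = 3 per group), or 42.9% of its shcontrol level (edgeR log2 change -1.22, SE 0.039, adjusted p = 5.22e-15). Among all tested genes, 242 had a log2 fold change as low as that of MMP1 or lower. MMP13 (ENSG00000137745, chromosome 11), a collagenase with strong activity on type II collagen, was counted less often, with 141, 131 and 113 counts in shcontrol and 228, 220 and 218 in shRNF26. The levels were 8.10, 7.98 and 6.88 CPM against 12.8, 12 and 12.7 CPM, and the groups did not overlap. MMP13 rose 1.63-fold (edgeR log2 change 0.70, SE 0.11, 95% interval 0.47 to 0.94, adjusted p = 5.46e-05), and 309 tested genes rose as much or more.

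Of the stromelysins, MMP10 was expressed and fell, while MMP3 was near the limit of detection. MMP10 (ENSG00000166670, chromosome 11) had 1024, 1057 and 1067 counts in shcontrol and 631, 636 and 616 in shRNF26. These correspond to 58.8, 64.4 and 65.0 CPM against 35.5, 34.6 and 35.8 CPM, so that every knockdown library was lower than every control library. The level fell from 62.7 ± 3.39 to 35.3 ± 0.663 CPM (edgeR log2 change -0.83, SE 0.060, adjusted p = 1.77e-09). MMP3 (ENSG00000149968, chromosome 11) had exactly 1 count in each of the 6 libraries. That is below the 3 counts that a count of 0 allows, so no change was detectable at this depth, and without a filter on low counts its edgeR adjusted p was 0.99 in a fit that called 17.6% of 34822 genes.

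MMP1, MMP3, MMP10 and MMP13 lie in a row of 9 MMP genes on the minus strand of chromosome 11. In the order of the annotation the row is MMP7, MMP20, MMP27, MMP8, MMP10, MMP1, MMP3, MMP12 and MMP13. Of these 9 genes 3 passed the minimum level, and they did not change together: the neighbours MMP10 and MMP1 fell and MMP13, at the end of the row, rose. The others were hardly counted, with 47 counts over all 6 libraries for MMP7, 10 for MMP12, 6 for MMP3, 1 for MMP8 and 0 for MMP20 and MMP27. MMP12, the macrophage elastase, had 1, 0 and 0 counts in shcontrol and 3, 3 and 3 in shRNF26, and MMP7, matrilysin, had 2, 7 and 5 against 9, 13 and 11. For neither did the edgeR test without a filter give a call (adjusted p = 0.24 and 0.18).

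Of the gelatinases, MMP2 was well expressed and rose slightly, and MMP9 was near the limit of detection. MMP2 (ENSG00000087245, chromosome 16), which cuts gelatin and type IV collagen, had 4807, 4513 and 4402 counts in shcontrol and 5319, 5755 and 5141 in shRNF26. At 276, 275 and 268 CPM against 299, 313 and 299 CPM the groups were close but did not overlap. MMP2 rose 1.11-fold (edgeR log2 change 0.15, SE 0.039, 95% interval 0.073 to 0.23, adjusted p = 0.0035), and with scaling by total counts alone the log2 fold change was 0.24. MMP9 (ENSG00000100985, chromosome 20), the other gelatinase, had 2, 1 and 2 counts in shcontrol and 5, 1 and 3 in shRNF26. The groups overlapped, and without a filter on low counts the edgeR adjusted p was 0.70, so no change of MMP9 was detectable at this depth.

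MMP14 (ENSG00000157227, chromosome 14), the membrane-anchored activator of pro-MMP2, had the highest counts of the 10 members and ranked 68 among all genes by mean CPM. It had 21010, 18786 and 18631 counts in shcontrol and 15272, 15965 and 14830 in shRNF26. The levels were 1207, 1144 and 1135 CPM against 860, 867 and 863 CPM. The knockdown libraries agreed closely and lay below all control libraries. MMP14 fell to 74.3% of its control level (edgeR log2 change -0.43, SE 0.034, adjusted p = 7.11e-09). MMP2, which its protein activates, thus rose slightly while MMP14 fell.

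The 3 inhibitors were all lower, TIMP1 and TIMP3 by similar amounts and TIMP2 by little. TIMP1 (ENSG00000102265, chromosome X), a soluble inhibitor of most secreted MMPs, had 918, 860 and 852 counts in shcontrol and 686, 618 and 594 in shRNF26. That is 52.7, 52.4 and 51.9 CPM against 38.6, 33.6 and 34.5 CPM, with the knockdown libraries more spread than the controls but all lower. It fell to 68.0% of the control level (edgeR log2 change -0.56, SE 0.064, adjusted p = 1.03e-06). TIMP3 (ENSG00000100234, chromosome 22), the inhibitor that binds to the matrix and also blocks several ADAM proteases, had 5687, 5424 and 5417 counts in shcontrol and 3939, 4111 and 3836 in shRNF26. It fell from 329 ± 1.98 to 223 ± 0.901 CPM (SD, n = 3 per group; edgeR log2 change -0.56, SE 0.037, adjusted p = 4.52e-10), the groups being far apart relative to their spread. TIMP3 lies inside SYN3 and TIMP1 inside SYN1, on the opposite strand and without overlap of exons, and these hosts had 5 to 20 and 0 to 7 counts per library.

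TIMP2 (ENSG00000035862, chromosome 17), the inhibitor that links pro-MMP2 to MMP14, had 6995, 6543 and 6504 counts in shcontrol and 6566, 6888 and 6095 in shRNF26. The raw counts overlapped, and only after scaling did the groups separate, at 402, 398 and 396 CPM against 370, 374 and 355 CPM. The log2 fold change was -0.12 (SE 0.037, 95% interval -0.20 to -0.045, edgeR adjusted p = 0.012). The call was lost with total-count scaling (-0.03, adjusted p = 0.50), with upper-quartile scaling (-0.07, adjusted p = 0.14) and without shRNF26 replicate 3 (-0.10, adjusted p = 0.068). It was kept with DESeq2 size factors as the scaling (-0.12, edgeR adjusted p = 0.014).

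**Figure D2:**
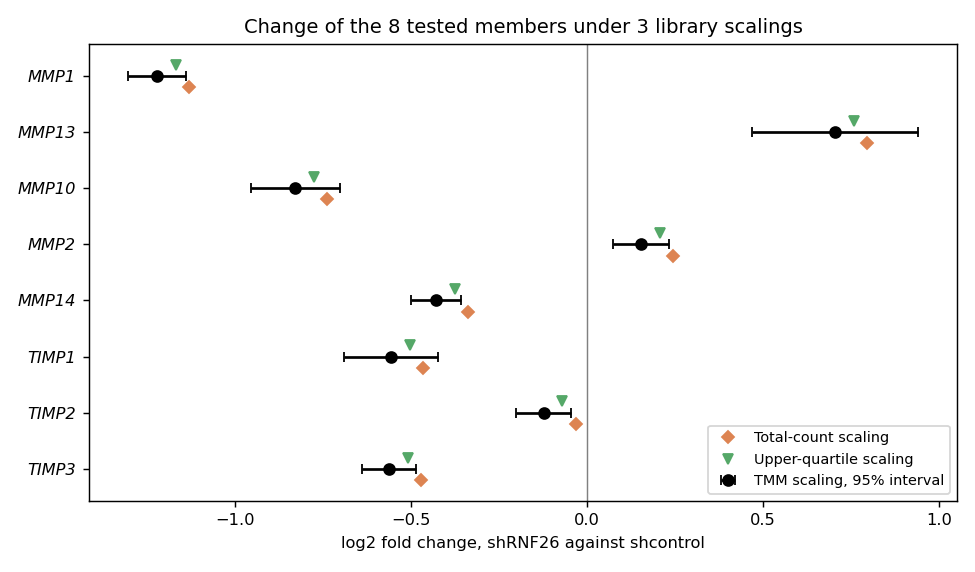
Log2 fold change of the 8 tested members, shRNF26 against shcontrol; black points and bars are the TMM-scaled edgeR estimates with 95% intervals, diamonds and triangles the estimates with total-count and upper-quartile scaling. Within each of these other scalings all 8 genes move to the right by a like amount. This brings TIMP2 to -0.03 with total-count and -0.07 with upper-quartile scaling, and leaves the other 7 on the same side of 0.

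The scaling of libraries matters here because the shcontrol and shRNF26 libraries had different TMM factors, 0.966 to 0.971 and 1.031 to 1.033. Over all tested genes the calls were 2785 higher and 3332 lower with TMM scaling, and 4449 higher and 2269 lower with total counts alone. Ratios of counts within a library do not depend on this. For the 5 expressed MMPs and the 3 TIMPs there are 15 such ratios, which share genes and are therefore not independent. In 14 of them the values of the groups did not overlap, 7 being lower and 7 higher in shRNF26. The 8 genes behind the ratios also separated singly, as did 50.1% of all tested genes. Ratios of other genes were not computed. With 3 libraries against 3 the exact two-sided permutation test cannot give a p below 0.1, and these 14 ratios had p = 0.1 (0.11 after Benjamini-Hochberg adjustment over the 15).

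Against each inhibitor, MMP1 and MMP10 were lower and MMP2 and MMP13 higher in the knockdown libraries. The count of MMP1 was 6.72, 6.93 and 6.97 times that of TIMP1 in shcontrol and 3.90, 4.61 and 4.54 times in shRNF26. The 3 control values lay close together and all above the knockdown values, a difference of -0.66 on the log2 scale (exact permutation p = 0.1). Against TIMP2, which changed least, the ratio of MMP1 differed by -1.10 and that of MMP10 by -0.70 on the log2 scale. MMP10 against TIMP1 and TIMP3, which fell as well, differed by -0.27 in both cases. The largest ratio differences upward were those of MMP13, at 1.27 against TIMP1 and likewise 1.27 against TIMP3.

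For the surface activation complex of MMP14, TIMP2 and pro-MMP2 the ratios went different ways. MMP14 had 3.0, 2.87 and 2.86 counts per TIMP2 count in shcontrol and 2.33, 2.32 and 2.43 in shRNF26, a log2 difference of -0.30 (exact permutation p = 0.1). MMP2 had 0.687, 0.690 and 0.677 counts per TIMP2 count in shcontrol and 0.810, 0.836 and 0.843 in shRNF26, a log2 difference of 0.28 (exact permutation p = 0.1). MMP14 against TIMP1 was the ratio whose groups overlapped, with 22.9, 21.8 and 21.9 in shcontrol and 22.3, 25.8 and 25 in shRNF26 (exact permutation p = 0.2). Against TIMP3, MMP14 was higher in shRNF26 without overlap, with 3.69, 3.46 and 3.44 in shcontrol and 3.88, 3.88 and 3.87 in shRNF26. The log2 difference was 0.13 (exact permutation p = 0.1). Transcript ratios say nothing of the amount or activity of the proteins.

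**Figure D3:**
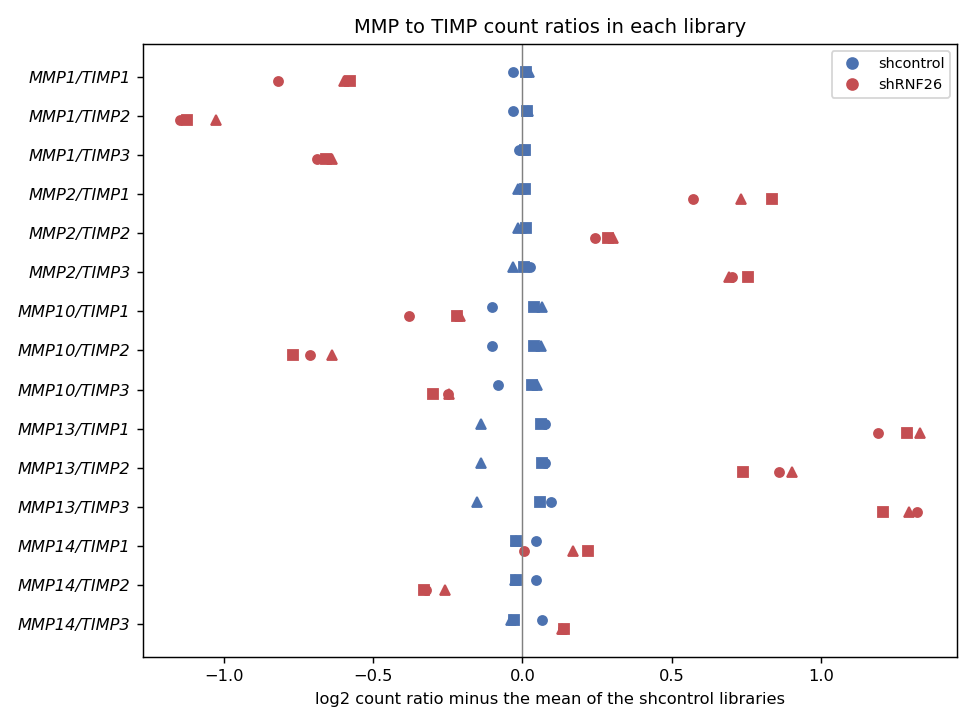
Log2 ratio of MMP to TIMP counts in each library, relative to the mean of the shcontrol libraries; symbols mark replicates 1 (circle), 2 (square) and 3 (triangle). The rows of MMP1 and MMP10 lie left of 0 and those of MMP2 and MMP13 right of 0 in all shRNF26 libraries, while MMP14 against TIMP1 overlaps.

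Levels of different genes can be set side by side only per length. Per kilobase of merged exons, MMP14 was the highest member in shcontrol at 260 ± 8.80 CPM per kilobase (SD, n = 3), followed by MMP1 at 183 ± 2.28, TIMP3 at 71.5 ± 0.430, TIMP2 at 70.8 ± 0.506, MMP2 at 55.3 ± 0.869, MMP10 at 35.7 ± 1.93, TIMP1 at 34.0 ± 0.272 and MMP13 at 2.70 ± 0.236. The values of TIMP3 and TIMP2 overlapped, as did those of MMP10 and TIMP1, and the other neighbours among these 8 were farther apart than their spread. In shRNF26 the levels per kilobase were 193 ± 0.893 for MMP14 and 78.3 ± 1.63 for MMP1, and TIMP2 at 65.0 ± 1.83 and MMP2 at 61.6 ± 1.58 stood above TIMP3 at 48.4 ± 0.196. The values of TIMP2 and MMP2 overlapped there. The order below MMP1 depends on the length used. With the length of the principal transcript, TIMP2 had 109 CPM per kilobase in shcontrol, MMP2 had 73, TIMP3 71.5, TIMP1 58.7 and MMP10 35.7, so that MMP2 was no longer below TIMP3 and TIMP1 stood above MMP10.

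**Figure D4:**
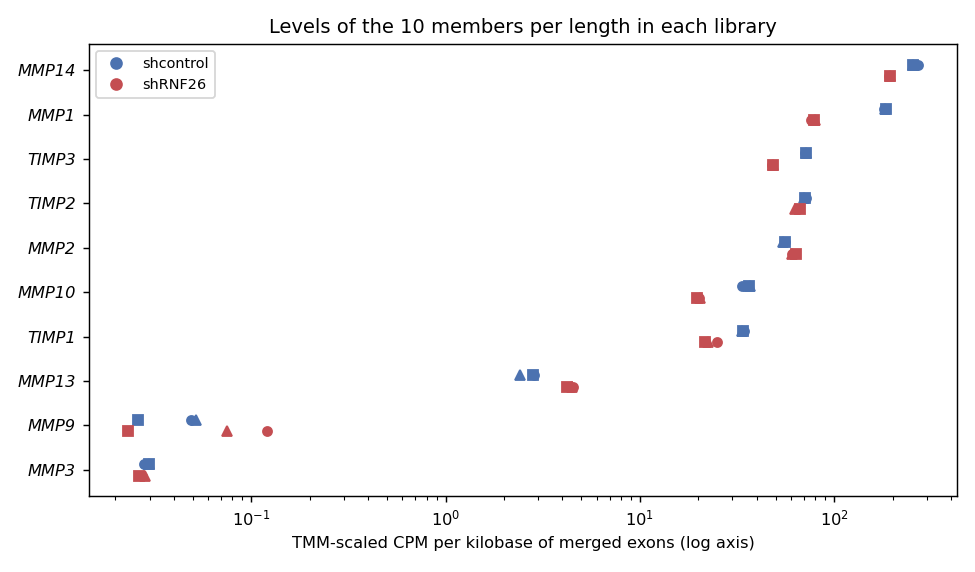
TMM-scaled CPM per kilobase of merged exons for the 10 members on a log axis, with each library as a point (blue shcontrol, red shRNF26). MMP14 and MMP1 lead in both groups, MMP13 sits between 2.43 and 4.53, and MMP9 and MMP3 lie more than an order of magnitude lower, at the level of a few counts.

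Promoter windows in the RefSeq set (GRCh38.p14, 250 bases before to 50 after the start of the gene) matched 4 members, MMP10, MMP14, TIMP1 and TIMP3, all of which fell. The AP-1 motif TGANTCA, the core GGAA of ETS factors and the box TATAAA were searched on both strands. Of these 4 windows, the 1 of MMP10 held a TGANTCA match, beginning 67 bases before the start, and a TATAAA match beginning 31 bases before it. Stretches that differ from TGANTCA by 1 base, such as TGAGTAA in the window of TIMP1, were not counted as matches. Among all 35116 windows of this length, 7.71% held TGANTCA, 11.5% TATAAA and 95.5% GGAA, so a GGAA match marks nothing out. MMP10 and TIMP3 are shown because they contrast most, with 36.3% and 72.7% G or C and 2 and 31 CG pairs. Capitals mark all motif matches, and the windows are chr11:102780579-102780878 on the minus strand for MMP10 and chr22:32801455-32801754 on the plus strand for TIMP3.
MMP10: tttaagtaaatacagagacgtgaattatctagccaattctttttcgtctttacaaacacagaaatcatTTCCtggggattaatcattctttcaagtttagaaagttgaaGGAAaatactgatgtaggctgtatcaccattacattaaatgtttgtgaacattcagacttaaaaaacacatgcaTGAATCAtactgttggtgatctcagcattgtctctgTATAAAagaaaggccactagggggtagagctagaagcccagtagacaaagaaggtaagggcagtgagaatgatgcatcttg
TIMP3: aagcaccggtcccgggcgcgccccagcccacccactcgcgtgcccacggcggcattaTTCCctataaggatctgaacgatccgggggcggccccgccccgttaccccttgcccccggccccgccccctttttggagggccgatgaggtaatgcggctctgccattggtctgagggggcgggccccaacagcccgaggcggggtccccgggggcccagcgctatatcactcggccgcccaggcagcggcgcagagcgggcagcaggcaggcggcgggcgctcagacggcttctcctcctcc
MMP14 had 5 GGAA matches and 55% G or C, and TIMP1 had 4 and 65.0%. A match is a description of the letters and not a sign of binding, and MMP1, MMP2, MMP3, MMP9, MMP13 and TIMP2 were not among the windows.

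Transcription factors described at MMP promoters were mostly lower. Among 25 tested genes, 18 were called lower, 1 higher and 6 neither, where 22.6% of all tested genes were called lower and 18.9% higher. Their median log2 fold change was -0.81, against 0.0079 over all tested genes. The members, this list and the lists below were chosen with earlier results of these data known. Their shares beside those of all tested genes are therefore description and not an independent test. The AP-1 subunit genes JUN and FOS had log2 fold changes of -2.73 and -2.36. FOSL1, another FOS family gene, fell from 708 ± 8.21 to 162 ± 1.30 CPM (log2 change -2.13, SE 0.037). Not all JUN and FOS family genes fell as steeply. FOSB had -1.32, JUNB -0.32 and JUND -0.27, while FOSL2 had -0.016 and was not called (named after their values were seen). ETS1, founder of the ETS family, fell from 238 ± 7.37 to 96.1 ± 4.04 CPM (-1.31, SE 0.045), and ATF3 and EGR1, stress and growth factor induced regulators, had -2.77 and -2.36. The 1 that rose was RUNX2 (0.31), while RUNX1 of the same family fell (-0.81), both named after their values were seen. Whether any of these factors had a part in the members' changes was not tested.

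Ligands and receptors known to induce MMPs were also mostly lower. Among 18 tested genes, 13 were called lower, 2 higher and 3 neither, beside 22.6% lower and 18.9% higher over all tested genes. The median was -0.50, against 0.0079. The cytokine gene IL6 (-3.71), the EGF receptor ligand genes HBEGF (-2.34) and TGFA (-1.16) and the cytokine gene IL1A (-1.21) had the largest falls on the log2 scale. The 2 that rose, named after their values were seen, were the receptor genes IL1R1 (0.38) and TNFRSF1A (0.33).

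A wider list held proteases that activate pro-MMPs with their inhibitors and receptors, MMP inducers, other MMP inhibitors, clearance receptors and surface proteins such as CD44, CD151 and CLDN1. Of its 17 tested genes 11 were called lower, 2 higher and 4 neither, beside 22.6% lower and 18.9% higher over all tested genes, and the median was -0.12. CD44 (-0.60), CLDN1 (-0.54) and CD151 (-0.24) were among the 11. PLAU, the urokinase that generates plasmin, fell from 712 ± 3.79 to 306 ± 4.34 CPM (log2 change -1.22, SE 0.035), close in size to MMP1. Its receptor gene PLAUR fell from 223 ± 5.23 to 98.8 ± 5.71 CPM (-1.17, SE 0.047). TFPI2, a secreted serine protease inhibitor of the matrix, had -0.81. RECK, a membrane-anchored inhibitor of several MMPs, had 0.08 and was not called, and FURIN, the convertase that activates MMP14, had -0.12. The 2 higher genes were LRP1 (0.49), an endocytic receptor that clears MMPs and TIMPs, and SPOCK3 (0.73). RECK, FURIN, LRP1, SPOCK3, CD44, CLDN1 and CD151 were named after their values were seen. PLAU and TFPI2 have overlapping genes on the opposite strand.

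Among the 16 other MMP genes and TIMP4, 6 passed the minimum level, of which 2 were called higher, 1 lower and 3 neither, with a median of -0.20. These 3 calls among 6 genes are near the 41.4% called over all tested genes. MMP15, a membrane-type relative of MMP14, had 56.2, 52.5 and 51.3 CPM in shcontrol and 62.9, 66.9 and 66.6 CPM in shRNF26. It rose 1.23-fold (edgeR log2 change 0.30, SE 0.056, adjusted p = 3.45e-04), the opposite direction to MMP14. MMP16, also of the membrane type, had a log2 fold change of 0.20 (edgeR adjusted p = 0.040, named after its value was seen) with overlapping groups. MMP24, a membrane-type gene with 48 to 96 counts per library, overlaps MMP24OS on the opposite strand, which had 167 to 228, and is therefore uncertain. It fell from 4.92 ± 0.888 to 3.01 ± 0.618 CPM (edgeR log2 change -0.71, SE 0.20, adjusted p = 0.0082).

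The related ADAM and ADAMTS proteases, some of which TIMP3 also inhibits, had calls in both directions. The calls over 16 tested genes were 6 lower, 4 higher and 6 neither, with a median of -0.07, beside 22.6% lower and 18.9% higher over all tested genes. ADAMTS1, which cuts proteoglycans, fell from 27.8 ± 0.893 to 7.99 ± 0.566 CPM (log2 change -1.80, SE 0.092), and ADAMTS6 from 6.12 ± 0.722 to 1.47 ± 0.379 CPM (-2.04, SE 0.21). ADAM8 had -1.06 and ADAMTS12 had -0.67. The 4 that rose, named after their values were seen, were ADAMTS7 (0.50, from 89.5 ± 10.7 to 127 ± 8.12 CPM), ADAMTS13 (0.47), ADAMTS3 (0.32) and ADAMTS15 (0.21). Among 18 tested MMP substrates 5 were called lower, 8 higher and 5 neither, with a median of 0.09, beside the same shares over all tested genes. Those that fell included the laminin chain genes LAMB3 (-1.91) and LAMA3 (-0.97), which encode parts of the basement membrane, and THBS1 (-1.33), a matricellular glycoprotein. Laminin chain genes did not all fall, as LAMA5 (0.51) and LAMC1 (0.14) were among the 8 called higher. So were the basement membrane genes HSPG2 (0.46), NID1 (0.18) and COL4A2 (0.09). Among those that rose, COL1A1, a chain of the fibrillar collagen that MMP1 cuts and also 1 of the fibroblast markers, had 0.51. FN1, fibronectin, had 0.15. COL1A2, the other COL1 gene of the list, had 3, 0 and 0 counts in shcontrol and 0 in each shRNF26 library. COL3A1 had 0 counts in every library. LAMA5, LAMC1, HSPG2, NID1, COL4A2, COL1A1, FN1, COL1A2 and COL3A1 were named after their values were seen.

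**Figure D5:**
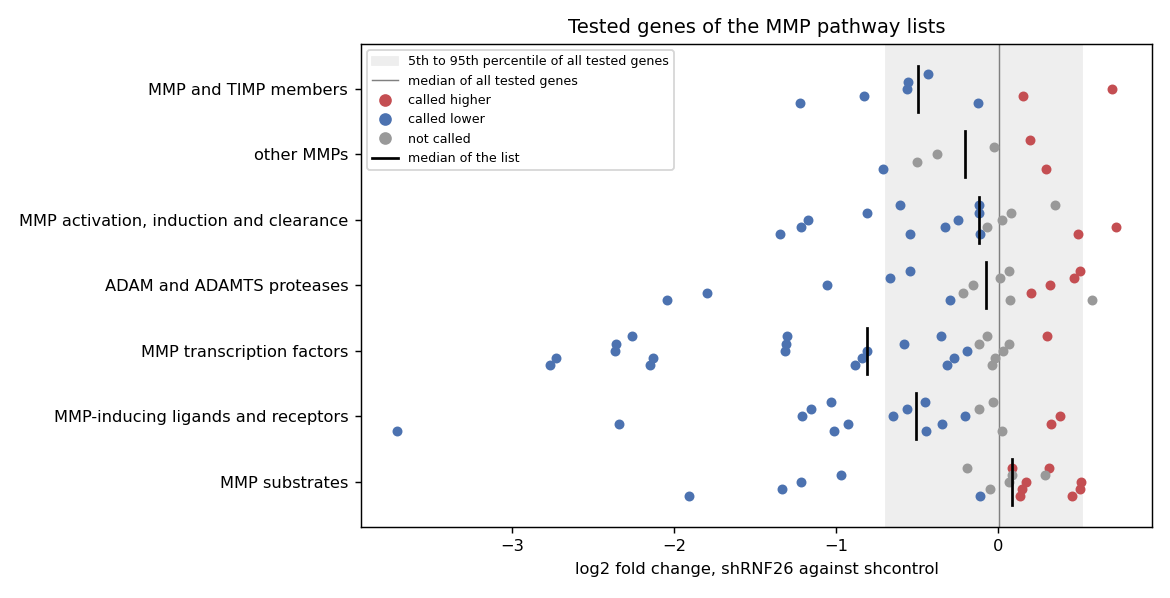
Log2 fold change, shRNF26 against shcontrol, of each tested gene in 7 lists; colours give the edgeR call, short black lines the list medians, and the grey band the 5th to 95th percentile of all tested genes (-0.69 to 0.52). The median lies at -0.49 for the members, -0.81 for the transcription factors and 0.09 for the substrates.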

How the data were processed

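RNA was sequenced from 3 shcontrol and 3 shRNF26 libraries labelled as A498, whose titles give the group and the replicate number. What the authors deposited is 1 table of whole-number gene counts, whose name speaks of FPKM but whose values are unscaled. Libraries were made with a directional kit per the labels' protocols, and build hg19 is named in the submitters' processing notes. The aligner, counter, annotation and strand setting were not given in the sources used here. The 2 blank rows were left out (0% of counts), and 61369 of the 61541 IDs matched a symbol.

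Counts were tested with the quasi-likelihood test of edgeR 4.0.16 (R 4.3.3), two-sided, with TMM scaling, a minimum mean of 1 CPM (14766 genes, 99.7% of counts) and Benjamini-Hochberg adjustment over all tested genes at 0.05. Standard errors were derived from the log2 fold change and its F statistic, and intervals are 95%. The test was checked on simulated counts. Alternatives were other scalings, filters and tests (DESeq2 1.42.0, limma 3.58.1), a replicate block and leaving out each library. Totals of 16682871 to 18021718 counts limit precision for genes with few counts. Lengths, neighbours and coding stretches came from GENCODE 29 and promoters from RefSeq, both on GRCh38 and used without the coordinates of the deposited build. No separate set of protein sequences was used, and the coding stretches were found in translations of the principal transcripts.

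The members and gene lists were chosen with earlier results of these data known. The members, RNF26, JUN, FOS, FOSL1 and ETS1 were always named, and from each other list up to 4 called genes with non-overlapping groups and the largest change. Some genes that this rule names are not reported here.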

Additional observations from a re-analysis of the deposited data

How the results depend on the processing

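Over 16 other settings the count of called genes ran from 4975 (without shRNF26 replicate 1) to 6718 (total-count scaling), with 5328 by DESeq2 and 6101 by limma-voom. The members called were 7 or 8 in each setting, and leaving out 1 library gave 7 to 8. The 7 tested members other than TIMP2 kept their direction and their call in all 16 settings. Their log2 fold changes ranged from -1.24 to -1.13 for MMP1, -0.88 to -0.74 for MMP10, -0.62 to -0.47 for TIMP1, -0.57 to -0.47 for TIMP3, -0.45 to -0.34 for MMP14, 0.13 to 0.24 for MMP2 and 0.63 to 0.80 for MMP13. TIMP2 ranged from -0.14 to -0.03 and lost its call in 3 settings, given with its result; the cause was not tested. All 120 recomputed ratio differences kept their direction, that of MMP14 against TIMP1 moving from 0.13 to 0.087 without shRNF26 replicate 2. With the replicate number as a block 6414 genes and all 8 tested members were called. Libraries of the same number shared little, with correlations of their deviations of 0.011, -0.027 and 0.093, and 3 of 6 libraries correlated best with their own number, so the numbers were not taken to pair the samples. Depth limits MMP3, MMP9, MMP7 and MMP12, each at 13 counts or fewer per library. The use of principal transcript length was chosen after seeing the data.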
